A study of Homo sapiens with 16 samples.

Results

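The 8 genes described here are the SLAM receptors SLAMF1, CD48, LY9, CD244, CD84, SLAMF6 and SLAMF7 and the intracellular adaptor SH2D1A, also called SAP. They were taken by symbol from the 27311 genes listed for every library. They were chosen by how their TPM values differ between cell lines, so the levels of a line are given as a description and are not tested. RNA sequencing had been done on 16 libraries from 4 human immune cancer cell lines, with 2 libraries in each of 8 groups. The stimulated groups were THP-1, a monocytic line, with lipopolysaccharide (LPS) at 1 µg/ml, U937, also monocytic, with LPS at 200 ng/ml, Jurkat, a T cell line, with anti-CD3 at 5 µg/ml and phorbol 12-myristate 13-acetate (PMA) at 100 ng/ml, and BJAB, a B cell line, with anti-IgM at 10 µg/ml and anti-CD40 at 4 µg/ml. Each stimulation lasted 4 h, and each line also had an untreated group. Both THP-1 groups carried dCas9-KRAB, a nuclease-dead Cas9 fused to a repressor domain, and the other lines were labelled wild type, so that genotype and line cannot be told apart for THP-1. The labels do not say that the 2 libraries of a group came from separate cultures, so the p-values measure the spread between libraries, which may be technical.

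SLAM receptors are surface glycoproteins of blood cells that mostly bind their own kind on a neighbouring cell. The exceptions are CD48, which is held in the membrane by a lipid anchor and has no cytoplasmic tail, and CD244, which binds CD48. Apart from CD48, most of the receptors, CD244 included, have tails with tyrosine motifs to which SH2D1A binds through its SH2 domain. SH2D1A can then bring in the kinase FYN, and its inherited loss causes X-linked lymphoproliferative disease. In T cells and B cells the family is known for its part in T cell help to B cells, and in natural killer cells for control of killing.

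The 7 receptor genes lie in one cluster on the long arm of chromosome 1, and SH2D1A lies on the X chromosome. Promoters from 250 bases before to 50 bases after the start were listed for 5 of the 8 genes in RefSeq (GRCh38.p14), while the expression values were made on build hg19. LY9, CD84 and SLAMF7 were not among the 5. The promoters of SH2D1A and SLAMF6 are shown because SH2D1A was read in Jurkat libraries alone and SLAMF6 had its high libraries in both lymphoid lines. Capitals mark the letters of searched motifs, and each sequence runs 5′ to 3′ on the strand of its gene.
SH2D1A, chrX:124346313-124346612, plus strand: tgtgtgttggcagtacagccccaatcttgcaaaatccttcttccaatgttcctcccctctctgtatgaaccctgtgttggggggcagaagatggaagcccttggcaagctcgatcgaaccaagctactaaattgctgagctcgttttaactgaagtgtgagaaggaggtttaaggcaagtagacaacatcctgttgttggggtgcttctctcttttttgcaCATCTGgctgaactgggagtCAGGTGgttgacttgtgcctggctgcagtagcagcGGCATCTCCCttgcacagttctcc
SLAMF6, chr1:160523206-160523505, minus strand: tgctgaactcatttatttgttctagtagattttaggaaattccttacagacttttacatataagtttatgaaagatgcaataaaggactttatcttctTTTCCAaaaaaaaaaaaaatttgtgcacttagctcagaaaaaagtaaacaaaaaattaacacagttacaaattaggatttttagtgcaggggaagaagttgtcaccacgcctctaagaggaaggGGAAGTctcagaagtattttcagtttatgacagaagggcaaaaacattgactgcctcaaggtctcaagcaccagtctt

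The motifs searched, on both strands, were NF-kB (GGGA, any 4 bases, CC), AP-1 (TGANTCA), NFAT (TGGAAA), ETS (GGAAGT), E-box (CAGNTG) and octamer (ATTTGCAT) letters. In the SH2D1A promoter the NF-kB letters began at base 27, counting the start as base 1, and both E-box matches lay before it. In the SLAMF6 promoter the NFAT letters began at -152 and the ETS letters at -28. Of 35116 promoters of the same length, 25.6% held the NF-kB letters, 49.9% the E-box, 20.7% NFAT and 22.8% ETS. AP-1 letters, in 7.71% of promoters, and octamer letters, in 1.77%, were in neither sequence. Among the other listed promoters, that of CD244 held AP-1 letters, beginning at -71. Binding was not measured, and a match is a run of letters only.

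Whole reads could be recovered from the deposited values (TPM, transcripts per 1000000) and gave a depth of 3317689 to 8432224 reads a library, with 12731 to 15013 genes above 0. Markers of each line's own lineage were present. All 6 T cell markers reached 1 TPM in both Jurkat groups, 5 of 6 B cell markers did so in stimulated and 6 of 6 in untreated BJAB, and of 6 monocytic markers 6 did so in THP-1, 4 in LPS-treated U937 (MPO was at 0 in both libraries) and 5 in untreated U937. Summed natural killer cell markers were highest in THP-1, at 34.1 to 47.6 TPM, but only 1 of the 6 reached 1 TPM in both libraries of a THP-1 group, and NCR1, FCGR3A and KLRC1 were at 0 in all 4. The SD of the log2 difference within a library pair was 0.35 to 0.46 in 6 groups. The pairs of stimulated U937 (0.89) and stimulated BJAB (0.96) stood apart from these. In bulk RNA, fewer cells with a transcript and less of it per cell cannot be told apart.

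**Figure D1:**
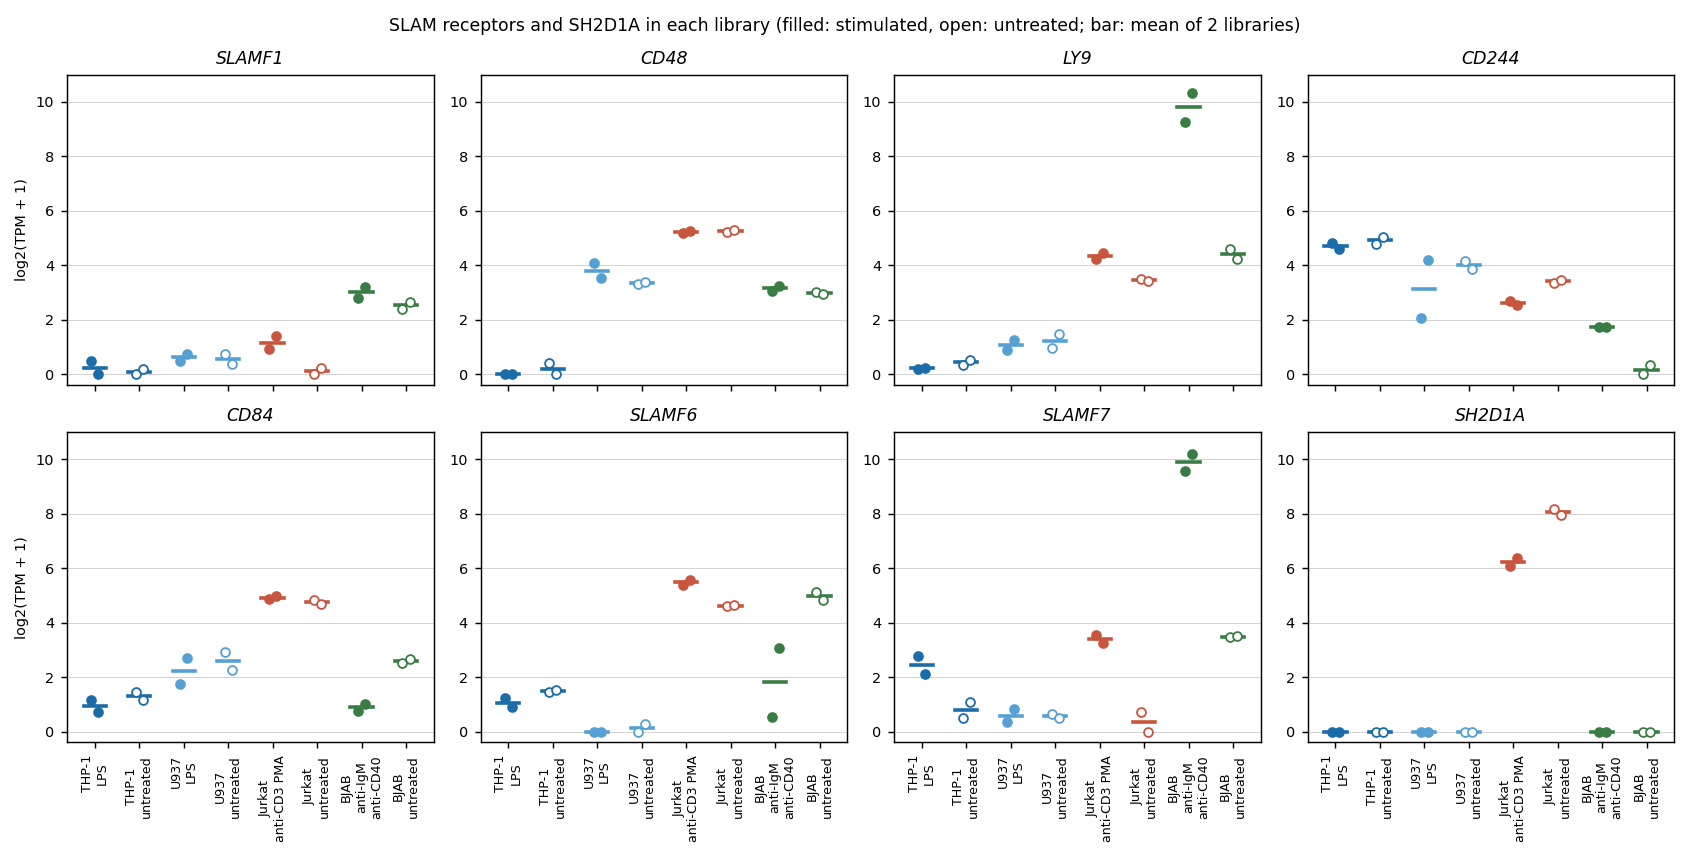
Transcript level of the 7 SLAM receptors and SH2D1A in each of the 16 libraries, as log2(TPM + 1) on the vertical axis, with the stimulated group (filled) left of the untreated group (open) of each line and a bar at the mean of 2 libraries. LY9 and SLAMF7 stand highest in stimulated BJAB, CD244 is highest in THP-1, and SH2D1A is above 0 only in the 4 Jurkat libraries.

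The lines differed in the makeup of their SLAM transcripts, with some leading receptors shared. TPM is a level per transcript length, so the receptors can be set side by side as shares of their summed TPM. In THP-1, CD244 made up 78.7% of the sum in LPS-treated libraries and 86.2% in untreated libraries. In U937, CD48 and CD244 together led, with CD48 at 49.2% and CD244 at 30.8% in LPS-treated libraries, against 28.8% and 47.6% in untreated libraries. The LPS-treated U937 pair was not alike in this, since CD48 held 69.0% of the sum in one library and 29.4% in the other. Jurkat spread its sum over SLAMF6 (30.4% stimulated, 22.2% untreated), CD48 (25.1% stimulated, 34.8% untreated) and CD84 (20.2% stimulated, 24.3% untreated). In BJAB, SLAMF7 (51.2%) and LY9 (47.7%) held nearly the whole sum in stimulated libraries, while in untreated libraries SLAMF6 led with 39.3%, before LY9 with 26.0% and SLAMF7 with 13.1%.

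The summed receptor level also differed between lines. It was 1394 and 2479.6 TPM in stimulated BJAB libraries, against 83.2 and 73.3 TPM in untreated ones. In Jurkat it was 139 and 149.9 TPM in stimulated libraries and 107 and 106 TPM in untreated ones. Both monocytic lines stayed between 22.8 and 36.6 TPM in all 8 of their libraries, so the lymphoid lines held more SLAM transcript than the monocytic lines in every library.

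**Figure D2:**
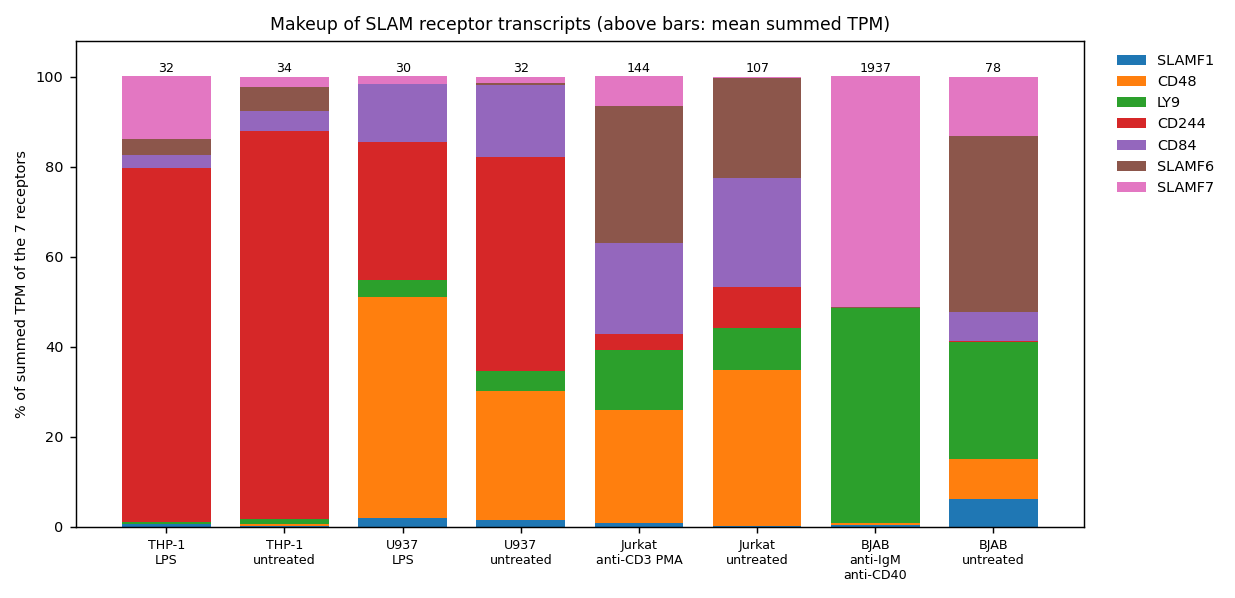
Share of each receptor in the summed TPM of the 7 SLAM receptors (vertical axis, percent), as the mean of 2 libraries for each of the 8 groups, stimulated left of untreated. The number above a bar is the mean summed TPM: 1937 TPM in stimulated BJAB, against 78 TPM in untreated BJAB.

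The choice of genes rested on the comparison between lines, over libraries that included the stimulated ones, and results of these data were known when it was made, so the tests of stimulation are not independent of it. Stimulated and untreated libraries of each line were compared with limma on log2(TPM + 1) over 14398 genes, with Benjamini-Hochberg adjustment over all of them. All 8 members had at least 1 TPM in at least 2 libraries and were tested, SH2D1A through its Jurkat libraries alone. Ranges of 2 libraries can stand apart without a change, and the share of all genes whose ranges did so was not counted. Groups said below not to overlap are thus a description only. Those of CD84 in Jurkat, CD48 in BJAB and U937, and LY9 and SLAMF6 in THP-1 did not overlap either, and none of these changes passed. In BJAB, 4 of the 8 members passed an adjusted p of 0.05, 2 higher and 2 lower in stimulated cells, where 6.40% of all tested genes passed (1.63% higher, 4.76% lower). In Jurkat, 3 of 8 passed, 2 higher and 1 lower, where 4.87% of genes passed (3.02% higher, 1.85% lower). In THP-1 0 of 8 passed (1 at an unadjusted p under 0.05, and 0 by voom on recovered reads), where 0.167% of genes passed, and in U937 0 of 8 passed (0 at an unadjusted p under 0.05, and 0 by voom), where 0.0278% passed. The median log2 change of the members was 0.33 in BJAB, 0.51 in Jurkat, -0.20 in THP-1 and -0.07 in U937. Over all tested genes it was -0.14 in BJAB, -0.03 in Jurkat, -0.06 in THP-1 and -0.25 in U937. Median-of-ratios scaling, which sets the median of all genes to 0.00, kept the 7 calls of BJAB and Jurkat and added CD244 in BJAB and SLAMF7 in THP-1. With the 4 libraries of a line fitted alone, 0 of 8 members passed in BJAB, where 12 genes did, and 0 of 8 in Jurkat, where 368 did.

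**Figure D3:**
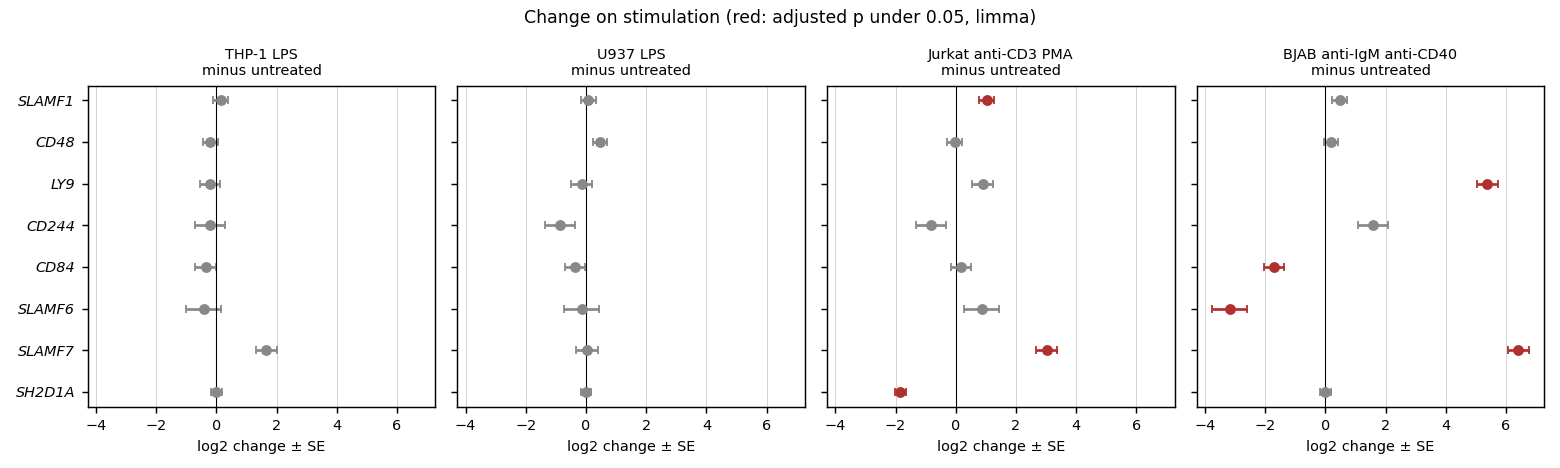
Log2 change of each member on stimulation (stimulated minus untreated, horizontal axis) with its standard error, in THP-1, U937, Jurkat and BJAB; red points passed an adjusted p of 0.05 by limma. In BJAB, SLAMF7 (6.40) and LY9 (5.38) rose while SLAMF6 (-3.17) and CD84 (-1.70) fell, and in Jurkat SLAMF7 (3.03) and SLAMF1 (1.03) rose while SH2D1A (-1.84) fell.

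SLAMF7, a receptor of plasma cells and natural killer cells that is known as the target of the myeloma antibody elotuzumab, changed most. It had 767 and 1173 TPM in stimulated BJAB libraries, against 10.0 and 10.4 TPM in untreated ones. Both stimulated libraries lay far above both untreated ones, with 8777 and 12769 reads against 86 and 97 reads. The mean rose 95.0-fold, with a log2 change of 6.40 ± 0.35 (SE) and an adjusted p of 2.29e-06, the 3rd largest rise of 14398 genes. With the BJAB libraries alone, the same change had an adjusted p of 0.0662. By level it stood 275th and 122nd among the detected genes of the stimulated libraries, against 7001st and 7023rd in the untreated libraries.

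SLAMF7 also rose in Jurkat. It had 10.6 and 8.58 TPM in stimulated Jurkat libraries, against 0.664 and 0 TPM in untreated ones. The groups did not overlap, with 104 and 84 reads in stimulated libraries against 7 and 0 reads. The fold of the means was 28.9, with a log2 change of 3.03 ± 0.35 and an adjusted p of 0.000278 (0.0688 with the Jurkat libraries alone). In THP-1 it had 5.89 and 3.29 TPM in LPS-treated libraries, against 0.409 and 1.14 TPM in untreated ones. These groups did not overlap either, the means differed 5.92-fold, and 16 reads lay behind the lower LPS value. The log2 change of 1.65 ± 0.35 did not pass (adjusted p of 0.175, 34th largest rise). It passed where libraries were scaled by median of ratios (1.68, adjusted p of 0.0405). In U937 the gene had 0.277 and 0.768 TPM in LPS-treated libraries and 0.546 and 0.410 TPM in untreated ones, which overlapped.

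LY9, a receptor of T cells and B cells that binds itself, had 611 and 1279 TPM in stimulated BJAB libraries, against 23.2 and 17.6 TPM in untreated ones. The lower of the stimulated libraries was still far above the higher untreated one, with 8288 and 16507 reads against 236 and 195 reads. The means differed 46.3-fold, with a log2 change of 5.38 ± 0.34 and an adjusted p of 3.77e-06, the 7th largest rise. That standard error rests on a spread shared over all 8 groups. With the BJAB libraries alone, the same change had an adjusted p of 0.174. By level it stood 358th and 110th in the stimulated libraries, against 5051st and 5741st in the untreated ones. In Jurkat LY9 had 17.8 and 20.6 TPM in stimulated libraries, against 10.2 and 9.58 TPM in untreated ones. The Jurkat groups did not overlap and the means differed 1.94-fold, but the log2 change of 0.89 ± 0.34 did not pass (adjusted p of 0.245). In the monocytic lines LY9 was low, at 0.150 and 0.173 TPM in LPS-treated and 0.258 and 0.445 TPM in untreated THP-1, and at 0.856 and 1.38 TPM in LPS-treated and 0.922 and 1.81 TPM in untreated U937.

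SLAMF6, a T cell, B cell and natural killer cell receptor with an inhibitory or activating role that depends on the adaptor, was high in both lymphoid lines at rest. It had 0.467 and 7.46 TPM in stimulated BJAB libraries, against 34.0 and 27.7 TPM in untreated ones. Both stimulated libraries were below both untreated ones, but they differed widely from each other, with 5 and 76 reads against 273 and 242 reads. The log2 change was -3.17 ± 0.58 with an adjusted p of 0.00813, the 20th largest fall of 14398 genes. In Jurkat SLAMF6 had 40.8 and 47.0 TPM in stimulated libraries, against 23.5 and 23.8 TPM in untreated ones. These pairs were tight and did not overlap. The log2 change of 0.86 ± 0.58 did not pass (adjusted p of 0.699) with the spread shared over all groups, the wide BJAB pair included. The change was also 0.86 with the first stimulated U937 and BJAB libraries left out, or with either stimulated BJAB library left out. It passed in these settings, where more of all tested genes passed as well than with all libraries. The monocytic lines held little SLAMF6, with 1.33 and 0.878 TPM in LPS-treated and 1.75 and 1.88 TPM in untreated THP-1, while U937 had reads in only 1 of its 4 libraries, an untreated one with 0.219 TPM.

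CD84, a receptor that binds itself and lies next to SLAMF6 on the chromosome, fell with it in BJAB. It had 0.681 and 1.04 TPM in stimulated BJAB libraries, against 4.75 and 5.28 TPM in untreated ones. The groups stood apart, with 22 and 32 reads against 115 and 139 reads. The log2 change was -1.70 ± 0.34 with an adjusted p of 0.0128. In Jurkat, its highest line, CD84 had 28.1 and 30.3 TPM in stimulated libraries and 27.3 and 24.5 TPM in untreated ones, a log2 change of 0.17 ± 0.34 that did not pass. In U937 it had 2.32 and 5.58 TPM in LPS-treated and 6.52 and 3.81 TPM in untreated libraries, and in THP-1 1.26 and 0.656 TPM in LPS-treated and 1.74 and 1.25 TPM in untreated libraries. Those monocytic groups overlapped.

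The falls of SLAMF6 and CD84 in BJAB did not pass with the BJAB libraries alone (adjusted p of 0.449 and 0.227). They also did not pass without some single libraries. Without the first untreated BJAB library the adjusted p was 0.0661 for SLAMF6 and 0.0669 for CD84, and without the second it was 0.0521 and 0.101. Without the first stimulated BJAB library that of CD84 was 0.0896, while SLAMF6 still passed. Summed B cell markers were also lower after stimulation, at 1348 and 3595 TPM in stimulated BJAB libraries against 5167 and 5481 TPM in untreated ones, and no B cell marker was at 0 in both libraries. Summed T cell markers were 11.1 and 11.5 TPM in stimulated and 29.9 and 33.2 TPM in untreated BJAB. The part of these shifts in the BJAB results was not tested.

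SLAMF1, a self-binding receptor that measles virus uses to enter lymphocytes, was highest in BJAB. It had 5.87 and 8.27 TPM in stimulated BJAB libraries, against 4.25 and 5.28 TPM in untreated ones. The ranges did not overlap, but the log2 change of 0.47 ± 0.25 did not pass (adjusted p of 0.268). In Jurkat SLAMF1 had 0.875 and 1.61 TPM in stimulated libraries, against 0 and 0.169 TPM in untreated ones. The groups did not overlap, on 12 and 22 reads against 0 and 2 reads. The log2 change of 1.03 ± 0.25 passed (adjusted p of 0.036), and 11 of 24 alternatives lost the call, with adjusted p-values up to 0.295. That highest value came without the second stimulated Jurkat library, and the other single libraries whose removal ended the call were both untreated Jurkat (0.246 and 0.111), THP-1 (0.0578 and 0.0575) and BJAB (0.0504 and 0.0503) libraries. The monocytic lines did not exceed 0.686 TPM.

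CD244, the natural killer cell receptor for CD48, was the leading SLAM transcript of THP-1. It had 26.9 and 23.4 TPM in LPS-treated THP-1 libraries and 26.5 and 31.8 TPM in untreated ones, which overlapped. In U937 it had 3.22 and 17.2 TPM in LPS-treated libraries and 16.9 and 13.6 TPM in untreated ones, so that 1 LPS library alone was low. With the first LPS-treated U937 library alone in its group the change was -1.94, against -0.88 (adjusted p of 0.358) with both. In Jurkat CD244 had 5.45 and 4.75 TPM in stimulated libraries, against 9.26 and 10.0 TPM in untreated ones. These groups did not overlap, and the log2 change of -0.81 ± 0.50 did not pass (adjusted p of 0.641). It passed without either LPS-treated U937 library, where more of all tested genes passed as well than with all libraries. In BJAB it had 2.33 and 2.35 TPM in stimulated libraries, against 0 and 0.249 TPM in untreated ones. Only 2 reads were found in the untreated pair against 45 in the stimulated pair, and the log2 change of 1.58 ± 0.50 fell short (adjusted p of 0.0861). It passed at a pseudocount of 0.1 (adjusted p of 0.015), by voom on recovered reads (0.0126) and with median-of-ratios scaling (0.0129). Leaving out either LPS-treated U937 library also made it pass, again with more of all tested genes passing.

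CD48, the ligand of CD244 and a lipid-anchored protein of most blood cells, was highest in Jurkat. It had 35.3 and 37.1 TPM in stimulated Jurkat libraries and 36.4 and 37.9 TPM in untreated ones, a log2 change of -0.04 ± 0.24. In BJAB it had 7.39 and 8.48 TPM in stimulated and 6.99 and 6.76 TPM in untreated libraries, a change of 0.18 ± 0.24. Neither change passed, and none of 24 alternatives called either of them. In U937 CD48 had 15.8 and 10.6 TPM in LPS-treated libraries, against 8.97 and 9.30 TPM in untreated ones. That change of 0.46 ± 0.24 did not pass (adjusted p of 0.34). With the first LPS-treated library alone in its group it was 0.73. In THP-1, where its partner CD244 was highest, CD48 had no read in LPS-treated libraries, while the untreated ones held 2 reads in all, 0.314 and 0 TPM.

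SH2D1A, the adaptor of the receptors' tyrosine motifs, was read in Jurkat alone. It had 66.2 and 81.8 TPM in stimulated Jurkat libraries, against 286 and 246 TPM in untreated ones. The groups stood well apart, on 557 and 687 reads against 2588 and 1781 reads. The untreated mean was 3.59 times the stimulated one, with a log2 change of -1.84 ± 0.18 and an adjusted p of 6.93e-05, the 34th largest fall. The standard error is small partly because 6 of the 8 groups hold only zeros and enter the shared spread. With the Jurkat libraries alone, the same change had an adjusted p of 0.0513. By level SH2D1A stood 2811th and 2403rd in the stimulated libraries, against 684th and 808th in the untreated ones.

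No SH2D1A read was found in the other 12 of 16 libraries. A count of 0 allows up to 3 reads, which is 0.305 to 0.719 TPM in those libraries and covers counting error only. Against the highest of these limits, SH2D1A was at least 103-fold higher in stimulated and at least 370.0-fold higher in untreated Jurkat. The stimulated BJAB cells with the largest sums of SLAM receptor transcripts thus had none of the adaptor's transcripts detected at this depth. Its relative SH2D1B, known as EAT-2 and as the partner of SLAMF7 in natural killer cells, was at 0 in 15 of 16 libraries and had 0.333 TPM in 1 LPS-treated U937 library.

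The test of the difference between the Jurkat and BJAB responses is a difference of log2 changes, Jurkat minus BJAB, and compares different stimuli. It was past an adjusted p of 0.05 for 5 of the 8 members, 2 positive and 3 negative. Of all tested genes, 5.24% passed (3.76% positive, 1.48% negative). SH2D1A is among the 3 only through its change in Jurkat and adds no difference between responses. The members were chosen by differences between lines, so the count is not independent of that choice and is a description only. SLAMF6 (4.03 ± 0.81, adjusted p of 0.0131) did not pass in Jurkat and fell in BJAB. Its difference passed in 18 of 24 alternatives. It missed with the libraries of both lines alone (adjusted p of 0.154), at a pseudocount of 0.1 (0.0916), and without either untreated Jurkat library (0.054 and 0.0504), the second stimulated Jurkat library (0.0598) or the first untreated BJAB library (0.0555). LY9 (-4.49 ± 0.48, adjusted p of 0.0002) was the result that passed in all 24 alternatives. SLAMF7 (-3.37 ± 0.50, adjusted p of 0.00196) rose in both lines, and its difference was not past the threshold at a pseudocount of 0.1 (-1.40, adjusted p of 0.602) or by voom (-1.02, adjusted p of 0.605). For SH2D1A (-1.84 ± 0.25, adjusted p of 0.00127; -1.55 and 0.24 by voom) no response could be measured in BJAB, which had no read, so this value restates the change in Jurkat and shows no difference between responses. That of CD84 (1.86 ± 0.47, adjusted p of 0.0459) passed in 7 of 24 alternatives, and without any single library other than the LPS-treated U937 libraries and the second stimulated BJAB library it missed, at up to 0.148. CD244 (-2.39 ± 0.71, adjusted p of 0.0856), with 2 reads in untreated BJAB, did not pass, but it too passed in 7 of 24 alternatives. The LPS responses of THP-1 and U937, at different LPS doses, differed past the threshold for 0 of 8 members (1 at an unadjusted p under 0.05, SLAMF7 with 1.62 ± 0.50 and an adjusted p of 0.622), where 0.0486% of genes passed. With the first LPS-treated U937 library alone in its group, the difference was 1.74 for CD244 and 1.86 for SLAMF7.

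**Figure D4:**
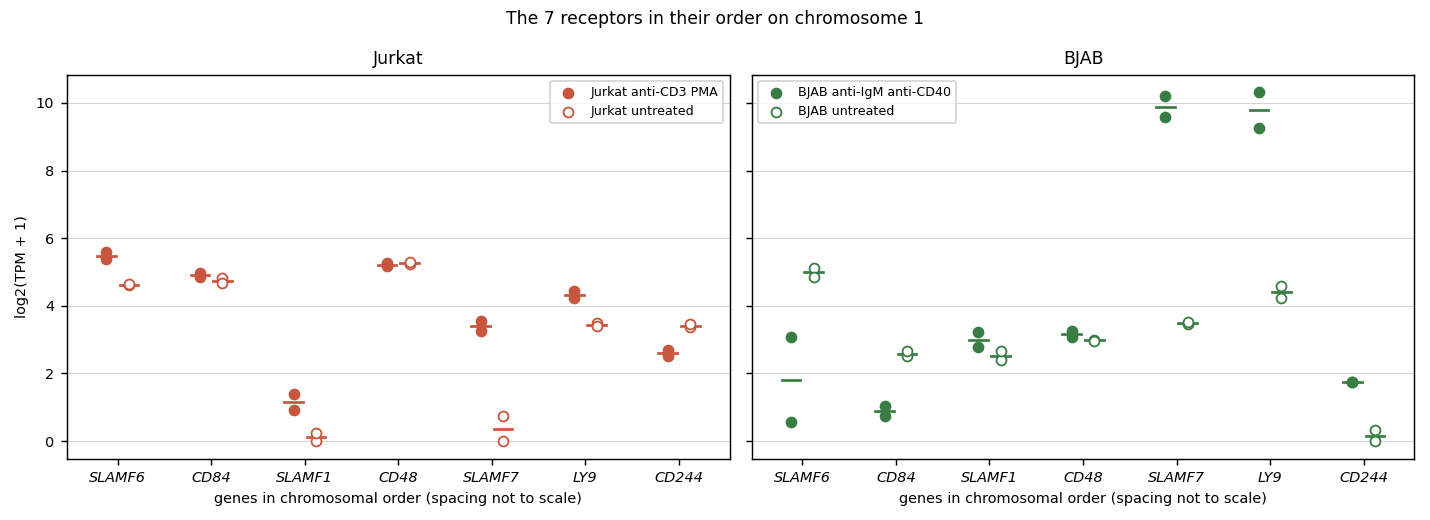
Level of the 7 receptors as log2(TPM + 1) (vertical axis) in their order on chromosome 1 (horizontal axis, spacing not to scale), in Jurkat (left) and BJAB (right), with stimulated libraries (filled) left of untreated ones (open) and bars at the mean. In BJAB the neighbours SLAMF6 and CD84 lie lower in stimulated libraries and the neighbours SLAMF7 and LY9 higher. SLAMF1 and CD48 between them moved by under 1 log2 unit, and CD244 after LY9 changed by 1.58 without passing.

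The receptors that passed in BJAB lay as neighbouring pairs, and whether position played a part was not tested. In the RefSeq gene order the cluster runs SLAMF6, CD84, SLAMF1, CD48, SLAMF7, LY9 and CD244. The first pair fell in stimulated BJAB and the pair of SLAMF7 and LY9 rose, while SLAMF1 and CD48 between them did not pass. CD244, next to LY9, had a log2 change of 1.58 and did not pass either (adjusted p of 0.0861 by limma). From the 2 genes before the cluster to the 2 after it the order holds 17 entries, of which 9 are in the files, and 7 of those are the receptors. The other two are VANGL2, a planar polarity gene, and ITLN1, a lectin. VANGL2 had 3.80 and 1.46 TPM in stimulated and 3.22 and 2.79 TPM in untreated Jurkat, and was not called there. In BJAB it was at 0 TPM, so no change could be measured in that line. ITLN1 had reads in 2 of 16 libraries, at most 0.942 TPM, and was not tested. Transcripts overlapping SLAMF1, CD48, CD244, CD84 and SLAMF7 in RefSeq are not in the files, and whether counting used strand is not given in the sources used here, so reads from such transcripts cannot be separated from those genes.

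Over the 16 libraries, log2(TPM + 1) of LY9 and SLAMF7 had a Pearson r of 0.89, SLAMF1 and SLAMF7 of 0.85, CD84 and SH2D1A of 0.88, CD48 and CD84 of 0.80, and SLAMF1 and CD244 of -0.81. These are descriptions of libraries that share lines. The tested genes most like a member, out of 11423 candidates, were RGS2 (0.963), ELMSAN1 (0.961) and CGA (0.943) for SLAMF7, and WDR25 (0.961), DIP2C (0.949) and SLC15A4 (0.946) for LY9. RGS2, a regulator of G protein signalling, averaged 2996 TPM in stimulated BJAB and 62.1 TPM in untreated BJAB. For SLAMF6 they included SEPT9 (0.972) and AES (0.961), and for CD84 CCDC88C (0.957), SEPT6 (0.956) and BCL9 (0.956). CD244 was most like BCL2 (0.975), an inhibitor of apoptosis, PDCD6IPP2 (0.954) and OSBPL5 (0.947), and CD48 most like IFI16 (0.979), a DNA sensor, FDFT1 (0.967) and PSMB2 (0.966). SLAMF1 was most like SOX8 (0.957), SNX29P2 (0.957) and SAP30BP (0.954). SH2D1A was matched at 1.000 by PRSS3P2, GFRA1 and MIR4458HG, which had mean values above 0.1 TPM in Jurkat alone.

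**Figure D5:**
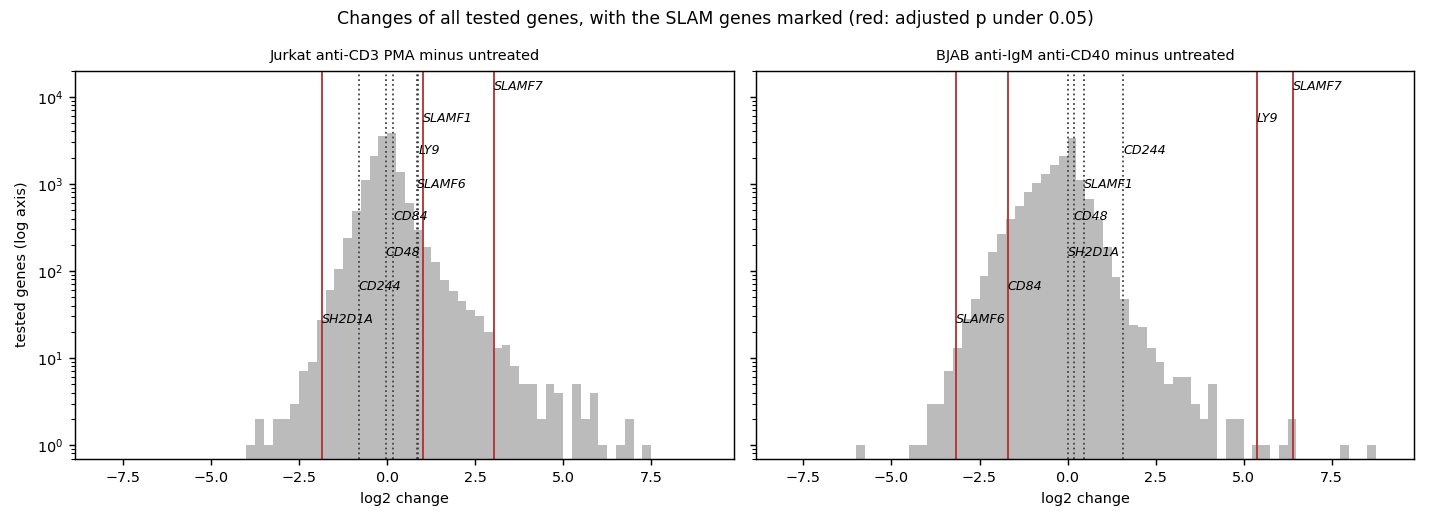
Distribution of log2 changes on stimulation (horizontal axis) over the 14398 tested genes in Jurkat (left) and BJAB (right), with the number of genes on a log axis and each member marked by a line (red where its adjusted p was under 0.05). SLAMF7 and LY9 lie in the far upper tail in BJAB, and SLAMF6 in the lower tail.

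A list of 24 genes for adaptors, kinases, phosphatases and effectors of SLAM and SAP signalling, of which 23 were tested, was set beside the members. In Jurkat 4 rose and 0 fell and in BJAB 1 rose and 1 fell, where 4.87% of all tested genes passed in Jurkat and 6.40% in BJAB. In THP-1 and U937 none passed. At an unadjusted p under 0.05 there were 0 in THP-1 and 5 in U937, against 522 and 2176 of all 14398 genes. Its median log2 change was 0.09 in Jurkat and -0.49 in BJAB, against -0.03 and -0.14 over all genes. LAT, the scaffold of T cell receptor signalling, had 1451 and 1595 TPM in stimulated Jurkat libraries, against 290.1 and 274 TPM in untreated ones, well apart from each other. Its log2 change was 2.43 ± 0.29 (adjusted p of 0.000315). The adaptor DOK2 (1.69, adjusted p of 0.00704), the NF-kB pathway protein BCL10 (1.01, adjusted p of 0.0458) and the adhesion receptor CD2 (0.89, adjusted p of 0.0169) also rose in Jurkat.

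In BJAB, CD58, the ligand of CD2, had 51.4 and 35.3 TPM in stimulated libraries, against 12.1 and 12.1 TPM in untreated ones. The groups did not overlap, and the log2 change was 1.74 ± 0.30 (adjusted p of 0.00626). CSK, the kinase that holds Src family kinases in check, had 35.6 and 147 TPM in stimulated BJAB libraries, against 326 and 349 TPM in untreated ones. Both stimulated libraries were lower, the first far more so than the second, and the log2 change was -2.20 ± 0.49 (adjusted p of 0.0216). FYN, the kinase that SH2D1A recruits, had 15.4 and 22.0 TPM in stimulated and 16.8 and 17.5 TPM in untreated Jurkat libraries, and 20.6 and 15.9 TPM in stimulated and 25.3 and 28.2 TPM in untreated BJAB libraries. Neither line's FYN change passed (0.10 ± 0.31 in Jurkat, -0.54 ± 0.31 in BJAB), and FYN did not exceed 2.23 TPM in the monocytic lines. FYN transcripts were thus present in BJAB, where no SH2D1A read was found.

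Of the family relatives outside the 8 genes, SLAMF8, a receptor of myeloid cells, had 1.45 to 5.15 TPM in the monocytic lines, 0.737 to 1.18 TPM in Jurkat and no read in BJAB. SLAMF9 had reads in 3 THP-1 libraries, up to 2.23 TPM, and 1 read in a U937 library. Neither passed in any stimulation.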

How the data were processed

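RNA was measured in 16 SmartSeq2 libraries, which start from oligo-dT primers, per the labels' protocols. The authors aligned reads with TopHat2 to hg19, per the submitters' processing notes. Which program counted reads, and on which annotation, is not given in the sources used here. Values were deposited as TPM, and each library summed to 1000000. TPM depends on the other genes of a library, so a large rise elsewhere lowers a gene's share. Within a gene the values are whole multiples of the TPM of 1 read; whole reads (tolerance 1e-06) were recovered for 17860 of 19092 genes above 0 (93.5%) and gave the depth. PCR duplicates are not removed by molecular tags, so limits from reads cover counting error only.

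Genes with at least 1 TPM in at least 2 libraries were tested with limma 3.58.1 (R 4.3.3) on log2(TPM + 1) with a trend, 1 coefficient for each of the 8 groups and no replicate block, two-sided, with 8 residual and 3.18 prior degrees of freedom and Benjamini-Hochberg adjustment over 14398 genes; the fit was tested on simulated data. Fold changes on this scale understate those of low genes. The members, lists and tests were chosen with earlier results of these data known. Named genes were all members, SLAMF8, SLAMF9 and SH2D1B, the 3 most correlated tested genes of each member (both with a mean of at least 5 TPM in some group), up to 4 passing pathway genes a stimulation, and genes between and beside the receptors in RefSeq order. Alternatives were pseudocounts of 0.1 and 5, no filter, median-of-ratios scaling, a replicate block, each line alone, voom on recovered reads and leaving out libraries. A gene that the rule names is not reported here.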

Additional observations from a re-analysis of the deposited data

Results flagged for a closer look

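The response of Jurkat to anti-CD3 and PMA was compared with that of BJAB to anti-IgM and anti-CD40. In limma's test of the difference of log2 changes (Jurkat minus BJAB), 5 of the 8 members passed an adjusted p of 0.05, SH2D1A included. Of all tested genes, 5.24% did. The members were chosen by how their values differ between lines, so the count is not independent of that choice and is a description only. LY9 differed by -4.49, from a change of 0.89 in Jurkat and 5.38 in BJAB. SLAMF6 differed by 4.03, from 0.86 in Jurkat and -3.17 in BJAB, and passed in 18 of 24 alternatives. SLAMF7 differed by -3.37, from 3.03 in Jurkat and 6.40 in BJAB, and missed at a pseudocount of 0.1 (adjusted p of 0.602) and by voom (0.605). CD84 differed by 1.86, from 0.17 in Jurkat and -1.70 in BJAB, and passed in only 7 of 24 alternatives. For SH2D1A the value of -1.84 is its change in Jurkat alone, since BJAB had no read and no response there could be measured; by voom it missed (adjusted p of 0.24). The stimuli differ between the lines, so line and stimulus cannot be told apart.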

How the results depend on the processing

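Counts of genes past an adjusted p of 0.05 moved by more than 1.5 times under several settings, and no member's called change reversed its sign. In THP-1 the 24 genes became 47 at a pseudocount of 5, 61 with no filter, 8 with the replicate block, 0 with the line alone (1027 at an unadjusted p under 0.05), 37 without the first stimulated U937 and BJAB libraries and 5 by voom; median-of-ratios scaling called 1 member, SLAMF7. In U937 the 4 genes became 8 at a pseudocount of 0.1, 13 at 5, 20 with no filter, 13 with median-of-ratios scaling and 0 with the line alone (458 unadjusted). In Jurkat the 701 genes became 443 at a pseudocount of 0.1, 368 with the line alone and 1942 without those first libraries, and the 3 members became 0 with the line alone and 6 without those libraries (LY9, CD244 and SLAMF6 added). In BJAB the 921 genes became 541 with the replicate block and 12 with the line alone, which called 0 of the 4 members. The difference of LPS responses had 7 genes, and 14 at a pseudocount of 5, 26 with no filter, 2 with the replicate block, 4 without those first libraries and 0 by voom (754 unadjusted). The difference of Jurkat and BJAB responses had 754 genes, and 454 at a pseudocount of 0.1 and 1261 without those libraries; its 5 members became 3 at a pseudocount of 0.1 (LY9, CD244 and SH2D1A). The cause of these moves was not tested, beyond fewer libraries where some are left out. Leaving out 1 library at a time gave 14 to 70 genes and 0 members in THP-1, 3 to 5001 genes and 0 to 2 members in U937, 431 to 967 and 2 to 4 in Jurkat, 320 to 4179 and 2 to 5 in BJAB, 3 to 2567 and 0 to 2 for the LPS difference, and 485 to 2970 and 3 to 6 for the Jurkat and BJAB difference. The highest counts in U937 and BJAB came without the second stimulated library of the line. Replicate numbers pair nothing in the labels, and deviations of same-numbered libraries correlated at -0.042 to 0.142; with the replicate block CD84 in BJAB had an adjusted p of 0.0618 and SLAMF1 in Jurkat 0.0825. Low reads limit SLAMF1 in Jurkat and CD244 in untreated BJAB. They also limit SLAMF7 in untreated Jurkat (7 and 0 reads) and SLAMF6 in the first stimulated BJAB library (5 reads). The SLAMF7 change in Jurkat ranged from 1.45 to 5.54 over the alternatives.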

Other observations

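Further genes of the pathway list differed in level between lines, which is given as a description with no test. LYN, a Src family kinase, had no read in the 4 Jurkat libraries, while it had 50.4 and 27.0 TPM in stimulated and 37.1 and 20.6 TPM in untreated BJAB. LCK, its T cell relative, had 1253 and 1349 TPM in stimulated and 1288 and 1161 TPM in untreated Jurkat, and 91.7 and 75.6 TPM in stimulated and 64.9 and 58.9 TPM in untreated BJAB. DOK2 was at 0 in all 4 BJAB libraries. Within BJAB, INPP5D, a phosphatase that SLAM receptors can recruit, had 3.41 and 14.1 TPM in stimulated and 30.3 and 35.3 TPM in untreated BJAB, and its log2 change of -2.05 ± 0.56 on stimulation was tested with limma and did not pass (adjusted p of 0.0541).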
